A study of Mus musculus with 39 samples.

Results

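The genes that make cholesterol and fatty acids were examined in microglia of wildtype (WT) and 5XFAD mice kept under chronic intermittent hypoxia (CIH) or normoxia (NX). The set holds 34 genes listed by symbol, from the SREBP transcription factors through the cholesterol pathway to the enzymes that build and desaturate fatty acids. All 34 had a row in each count table, which makes 34 of the 46333 genes of the female table and 34 of the 54532 genes of the male table. The study's methods describe a cross of C57BL/6J WT females with 5XFAD males on a B6SJL background, so the mice compared need not be of 1 inbred strain. 5XFAD mice carry transgenes under a neuronal promoter, so the transgenes are not driven in microglia themselves, and they deposit amyloid. Exposure began at 4 months of age in all groups and lasted 6 months in females, killed at 10 months, and 4 months in males, killed at 8 months. By the labels, CIH mice received 6.5% oxygen alternating with 21% at 90-s intervals for 8 h per day, and NX mice stayed at 21%. The study's methods give a slightly lower oxygen level and a longer day. CD11b+ cells were taken from the cerebrum with magnetic beads after enzyme digestion in every group, so myeloid cells other than microglia could be included. There were 39 libraries, 19 from females and 20 from males, with 5 per group and 4 in female WT NX. The study's methods give 5 independent samples per group and mention a female normoxia sample that stood out in several comparisons. The sources used here do not say which it was or whether it was kept. The column names of female WT NX skip a number, and whether that was this sample is not stated. Females and males differed in age, length of exposure and gene annotation, so each sex was compared within itself.

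Cells make cholesterol from acetyl-CoA through the mevalonate pathway to squalene, which is closed into a ring and trimmed to cholesterol. SREBP2, made by Srebf2, turns on these genes when membrane sterol is low, and SREBP1, made by Srebf1, acts more on fatty acid genes. Scap escorts both to the Golgi for cleavage, and the Insig proteins hold them back in the endoplasmic reticulum when sterol is plentiful. Fatty acids are built from acetyl-CoA by Acaca and Fasn, then lengthened by Elovl enzymes and given double bonds by Scd and Fads enzymes. In the brain cholesterol is made locally, since the blood-brain barrier keeps out most of that in plasma, and microglia take up much lipid as they clear myelin and debris.

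Sterol-regulated promoters commonly hold a sterol element near CCAAT boxes, bound by NF-Y, and GC boxes, bound by Sp1. RefSeq sequence upstream of the transcript start (250 bases, build GRCm38.p6) was matched for 27 of the 34 members, and those without an entry were Fdps, Fdft1, Sqle, Stard4, Scd1, Scd2 and Fads1. Promoters of 3 members are printed to show these motifs in a mevalonate, a sterol and a fatty acid gene that were higher in 5XFAD libraries in the results that follow. Capitals mark matches on either strand to the SREBP consensus TCACNCCAC, the CCAAT box, the E-box CACGTG and the GC box GGGCGG.
Hmgcs1 (chr13:119690101-119690350, plus strand): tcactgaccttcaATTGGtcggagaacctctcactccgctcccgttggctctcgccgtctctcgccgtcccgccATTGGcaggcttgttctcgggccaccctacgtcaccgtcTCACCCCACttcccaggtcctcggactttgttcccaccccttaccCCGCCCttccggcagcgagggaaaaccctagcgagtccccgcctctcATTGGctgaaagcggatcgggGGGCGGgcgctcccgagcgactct
Sc5d (chr9:42264301-42264550, minus strand): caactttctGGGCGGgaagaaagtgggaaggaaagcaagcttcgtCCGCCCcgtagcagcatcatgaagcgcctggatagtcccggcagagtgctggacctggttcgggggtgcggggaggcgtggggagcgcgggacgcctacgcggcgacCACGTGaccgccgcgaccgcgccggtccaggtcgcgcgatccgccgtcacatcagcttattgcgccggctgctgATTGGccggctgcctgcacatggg
Fasn (chr11:120824548-120824797, minus strand): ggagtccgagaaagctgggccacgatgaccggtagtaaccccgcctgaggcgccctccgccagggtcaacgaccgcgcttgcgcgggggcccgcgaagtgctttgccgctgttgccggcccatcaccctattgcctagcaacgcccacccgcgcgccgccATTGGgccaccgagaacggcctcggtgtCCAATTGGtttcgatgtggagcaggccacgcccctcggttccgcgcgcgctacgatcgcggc
Hmgcs1, the synthase that opens the mevalonate pathway, had the SREBP consensus 137 to 129 bases before its start, between CCAAT boxes at 176 to 172 and at 45 to 41 bases. It was the only one of the 27 with these letters, or 3.70%, against 1.22% of the 27025 genes with an entry. The CCAAT box was in 21 of 27 members (77.8%) and in 37.5% of all genes. The E-box was in 6 of 27 (22.2%), against 6.86%. The GC box was in 21 of 27 (77.8%), against 35.4%, and among the 11226 genes with an entry that passed the filter on low counts in CIH females it was in 60.0%. Among those 11226 genes the CCAAT box was in 40.1%, the E-box in 9.56% and the SREBP consensus in 1.18%. No motif overlapped a motif of another kind in these members, but 2 of the 3 CCAAT boxes of Fasn overlap each other. The window of Acaca held no match. It lies at an internal transcript start, 65766 bases downstream of the most upstream annotated start of the gene, so it does not cover the promoters before that. Dhcr7, Insig2, Pmvk, Scap and Srebf1 had more than 1 window, and any gene was counted where any of its windows matched. Windows of Srebf1, Dhcr7 and Insig2 lay up to 12110, 7069 and 4911 bases downstream. The CCAAT boxes of Dhcr7 were only in its furthest window. These matches describe the letters alone.

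Libraries of females held from 14731683 to 25906121 counts and those of males from 13457293 to 23095627. Levels are given as CPM, counts scaled to library size, and 1 CPM stood for 14.8 to 27.2 reads in females and 12.9 to 24.5 in males. The 9 microglia markers summed to 17291 to 27637 CPM in all libraries, against at most 1285 for 8 neutrophil markers, 1026 for 9 astrocyte markers, 343 for 9 oligodendrocyte markers, 335 for 7 border macrophage markers, 289 for 9 endothelial markers and 48.1 for 9 neuron markers. A library labelled female 5XFAD NX replicate 4 went against its label. Cst7, a gene of disease-associated microglia, was at 16.4 CPM in it, within the 7.77 to 17.3 of the WT females and below the 1154 to 2462 of the other 4 female 5XFAD NX libraries. Apoe was at 770 CPM in it, against 1063 to 2695 in WT females and 13905 to 27976 in those other 4. The main values of female 5XFAD NX are therefore followed by those without it. The library's mean log2(CPM + 1) over the 34 members was 4.17, against 4.29 to 4.37 in WT NX females and 4.91 to 5.09 in those other 4. As the members were low in it, leaving it out was bound to raise most of them in 5XFAD. Male 5XFAD NX replicates 4 and 5 also stood apart, with Cst7 at 1854 and 1871 CPM against 2967 to 3741 in the other 3.

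Levels of the members were compared with each other per gene length, in the authors' FPKM. In WT NX females the highest were Acly, which makes cytosolic acetyl-CoA from citrate (46.2 ± 4.84 FPKM, SD, n = 4), Fads1, a desaturase of polyunsaturated fatty acids (40.9 ± 1.97), and Scd2, a stearoyl-CoA desaturase (29.8 ± 2.73). Acly and Fads1 differed by little more than the SD of Acly. The lowest were Stard4 (1.12 ± 0.186), Scd1 (1.00 ± 0.420) and the elongase Elovl6 (0.438 ± 0.0900), and Stard4 and Scd1 lay within their SD. The order changed in 5XFAD CIH females, where Scd2 was highest (75.7 ± 8.21 FPKM, n = 5), above Acly (54.6 ± 5.35), and Acaca, the rate-limiting carboxylase of fatty acid synthesis, went from the 29th place in WT NX to the 13th (1.42 ± 0.136 and 17.6 ± 2.02 FPKM). In WT NX males Fads1 was highest (34.8 ± 3.12 FPKM, n = 5), followed by Acly (30.9 ± 4.24), within their SD, and in 5XFAD NX males Scd2 (65.5 ± 9.17) again stood first. Acaca stood 31st in WT NX males (0.488 ± 0.110 FPKM) and 19th in 5XFAD NX males (7.0 ± 2.35).

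The comparisons between genotypes asked how far amyloid-bearing 5XFAD brains change these genes under each treatment. In both sexes and under both treatments 10 members were higher in 5XFAD microglia: Srebf2, Insig1, the sterol enzymes Sqle, Cyp51, Sc5d and Dhcr7, Stard4, Acaca, Fasn and Scd2. Of all genes tested in the 4 comparisons, 4.89% were higher in each. The count of 10 turned on single libraries of NX females, as it was 17 without 5XFAD NX replicate 4, 0 without WT NX replicate 3 or 4, 3 without WT NX replicate 1, and 1, Acaca, without WT NX replicate 2 or 5XFAD NX replicate 1, 2, 3 or 5. With the replicate block it was also 0. Genes are said to rise or fall only where edgeR's quasi-likelihood test gave a false discovery rate under 0.05 over all genes tested, and log2FC is 5XFAD minus WT. In bulk RNA, fewer cells of a type and less RNA per cell cannot be told apart. In NX females 12 members rose and 1 fell, while 7.26% of the 14513 genes tested rose, 6.61% fell and 13.9% were called in either direction. Without female 5XFAD NX replicate 4, 25 members were called, 22 of them higher. The count of all genes called also went from 2013 of 14513 to 6229 of 14149. The count of 13 also rested on single WT libraries, as it was 0 without WT NX replicate 3 or 4 (with 43 and 177 genes called in all), 1 without replicate 2 and 3 without replicate 1. It was 1 without 5XFAD NX replicate 1, 2, 3 or 5. In CIH females 24 members rose and 4 fell, while 26.2% of the 14911 genes tested rose, 25.7% fell and 51.9% were called.

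In NX males 18 members rose and none fell among the 33 tested, while 10.4% of the 14834 genes rose, 7.37% fell and 17.8% were called. Without 5XFAD NX replicates 4 and 5, 20 members rose and Ggps1 fell. The count of all genes called also went from 2638 of 14834 to 4792 of 14299. In CIH males 21 rose and 1 fell, while 25.3% of 14793 genes rose, 23.7% fell and 49.0% were called. The median log2FC of the members was 0.63 in NX females, 1.08 in CIH females, 0.77 in NX males and 0.70 in CIH males, against -0.02, -0.02, 0.02 and -0.06 over all genes tested. Without replicate 4 the median of the members in NX females was 0.76. The 4 comparisons share no library. The members named above that rose in all 4 are 10 of the 33 tested in all 4, against 4.89% of the 12607 genes tested in all 4. Without female 5XFAD NX replicate 4 the 17 were these and Srebf1, Hmgcs1, Pmvk, Fdft1, Msmo1, Scd1 and Elovl5, against 9.21% of 12483 genes, and without WT NX replicate 3 or 4 the share of all genes was 0.112% and 0.310%. Scap, Acat2, Nsdhl and Elovl6 were called in none of the 4, although Nsdhl was called in NX females without replicate 4 (log2FC 0.31). Scaling by library size alone, in place of TMM, moved the median of all genes to -0.17, -0.21, -0.16 and -0.43 and that of the members to 0.44, 0.88, 0.55 and 0.31, and the calls became 16 higher and 3 lower in NX males and 17 higher and 5 lower in CIH males. Under it Scap, Insig2 and Ggps1 were called lower in CIH females and in both male comparisons. For this scaling the share of all genes called in each direction is not given, so these calls cannot be set against it.

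**Figure D1:**
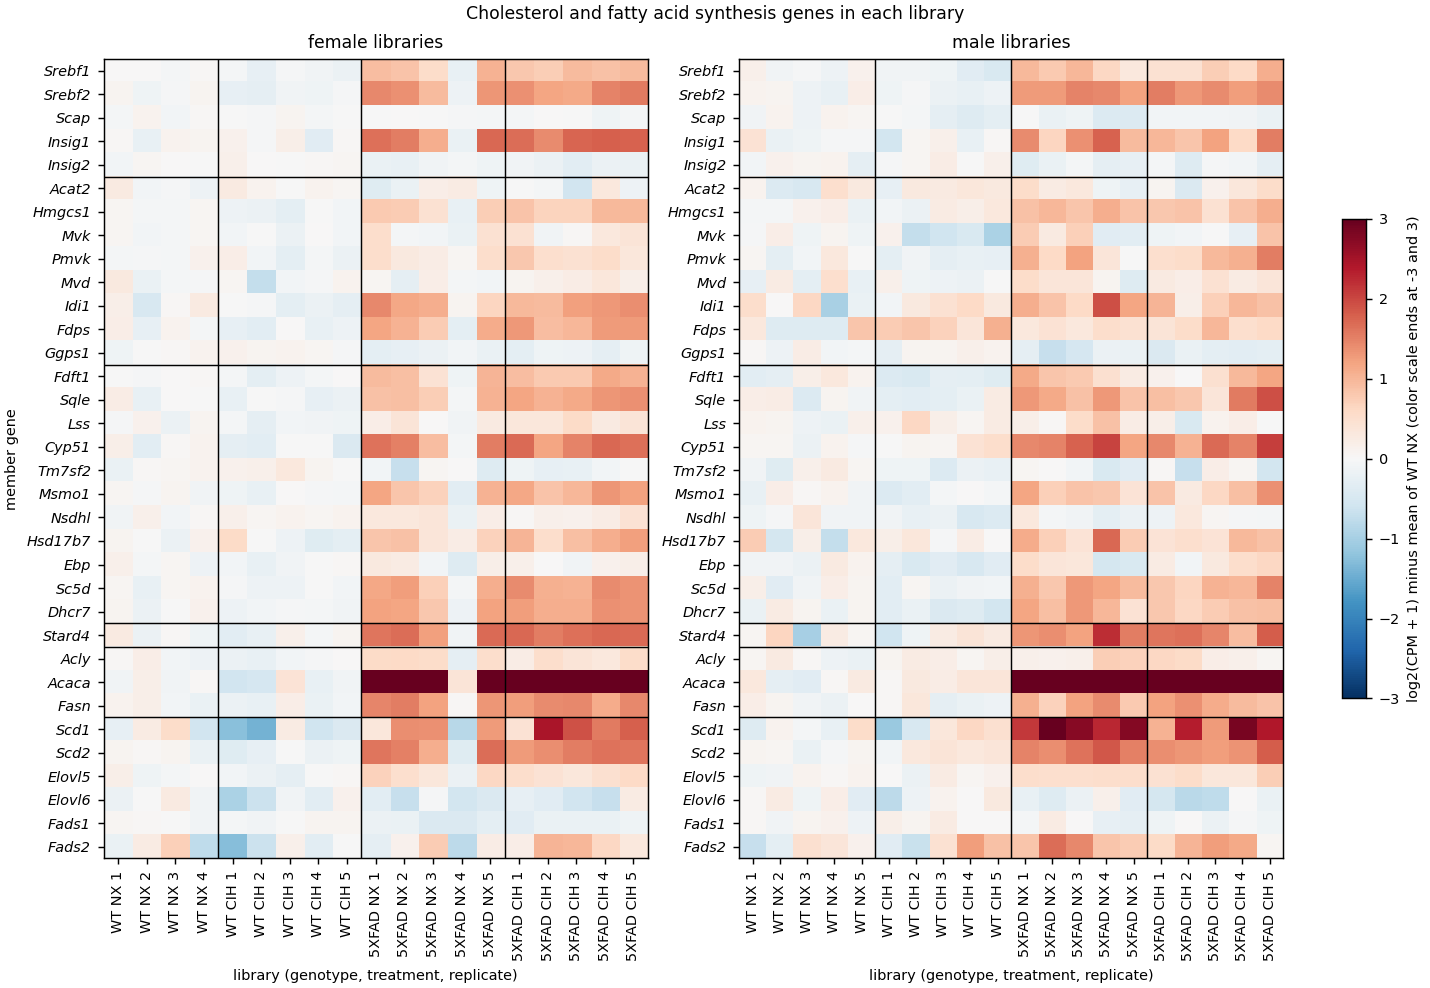
Level of each member in each library as log2(CPM + 1) minus the mean of the WT NX libraries of the same sex, with females on the left and males on the right, genes ordered by pathway step and color ending at -3 and 3. The 5XFAD columns are mostly red in the rows of Srebf2, Insig1, Cyp51, Stard4, Acaca, Fasn and Scd2, apart from the column of female 5XFAD NX replicate 4, which is pale like the WT columns.

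**Figure D2:**
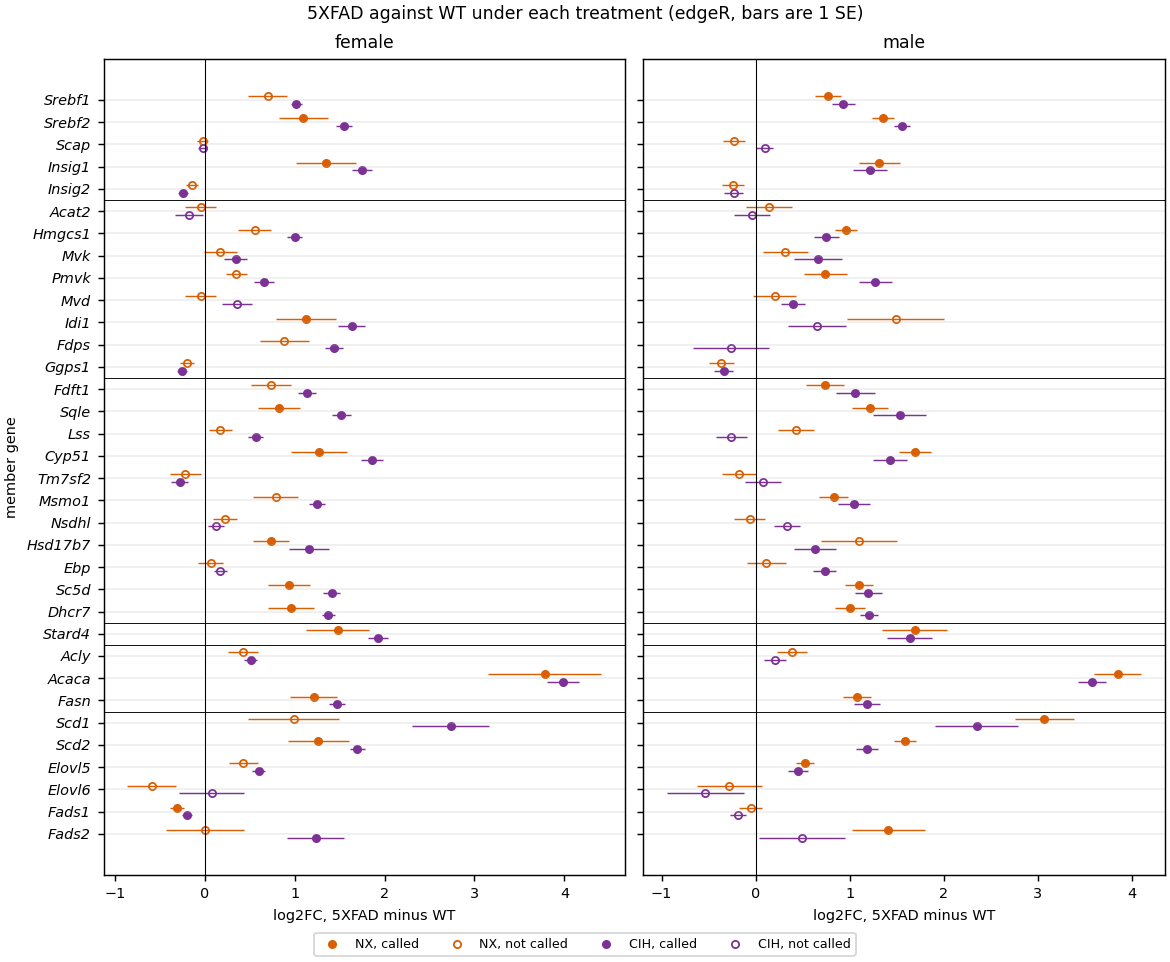
log2FC of 5XFAD minus WT for each member under NX (orange) and CIH (purple), in females (left) and males (right), with bars of 1 SE and filled points for genes with a false discovery rate under 0.05. Acaca lies furthest to the right, from 3.58 to 3.99, and Scap, Insig2, Acat2, Ggps1, Tm7sf2, Elovl6 and Fads1 are among those near or left of 0. For Scap, Insig2, Ggps1, Tm7sf2 and Fads1 the SE is smaller in CIH females than in NX females.

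Among the SREBP factors and their controllers, Srebf2 and its target Insig1 rose in 5XFAD microglia in all 4 comparisons, Srebf1 rose in all but NX females, and Scap was called in none. Srebf2 was at 63.2, 54.0, 57.8 and 63.3 CPM in WT NX females and at 164, 156, 115, 53.0 and 151 CPM in replicates 1 to 5 of 5XFAD NX, so that replicate 4 lay below every WT NX library and the other 4 above. It was at 48.9 to 57.7 CPM in WT CIH females and 132 to 179 CPM in 5XFAD CIH, with no overlap. In males it was at 58.4, 57.7, 48.6, 46.3 and 63.1 CPM in WT NX, 134, 134, 155, 149 and 127 in 5XFAD NX, 49.9, 52.8, 47.8, 46.5 and 48.9 in WT CIH, and 159.7, 135, 148, 131 and 147 in 5XFAD CIH. Every male 5XFAD library was above every male WT library. The log2FC was 1.10 ± 0.275 (SE, adjusted p = 0.0347) in NX females, 1.29 ± 0.110 without replicate 4, 1.55 ± 0.0898 (adjusted p = 1.88e-08) in CIH females, 1.35 ± 0.117 (adjusted p = 6.04e-06) in NX males and 1.56 ± 0.0860 (adjusted p = 5.65e-09) in CIH males.

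Insig1, which holds the SREBP complex back and is itself turned on by SREBP, was at 16.6, 13.8, 17.5 and 17.0 CPM in WT NX females and at 53.3, 48.5, 35.5, 14 and 55.7 CPM in 5XFAD NX. Again only replicate 4 fell among the WT values. The log2FC was 1.35 ± 0.334 (SE, adjusted p = 0.0337), and 1.56 ± 0.140 without that library. It was 1.75 in CIH females, 1.32 in NX males and 1.22 in CIH males, with no overlap between genotypes. Insig2, the other Insig gene, moved the other way in CIH females, at 48.0, 43.2, 42.7, 44.0 and 44.3 CPM in WT and 39.7, 37.9, 34.1, 37.6 and 37.0 in 5XFAD (log2FC -0.24 ± 0.0582, SE, adjusted p = 0.00382). All 5 of the 5XFAD libraries were below all WT libraries, and the fold was 1.18. In the other 3 comparisons its log2FC was -0.14, -0.24 and -0.23 and was not called, but it was called in NX females without replicate 4 (-0.18, adjusted p = 0.0441). Srebf1 had a log2FC of 0.70 in NX females (not called, but 0.85 and called without replicate 4), 1.02 in CIH females, 0.77 in NX males and 0.93 in CIH males. It overlaps Rai1 on the opposite strand, at 68.7 CPM in WT NX males and 70.2 CPM in 5XFAD NX males, and the sources used here do not say whether counting used strand.

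**Figure D3:**
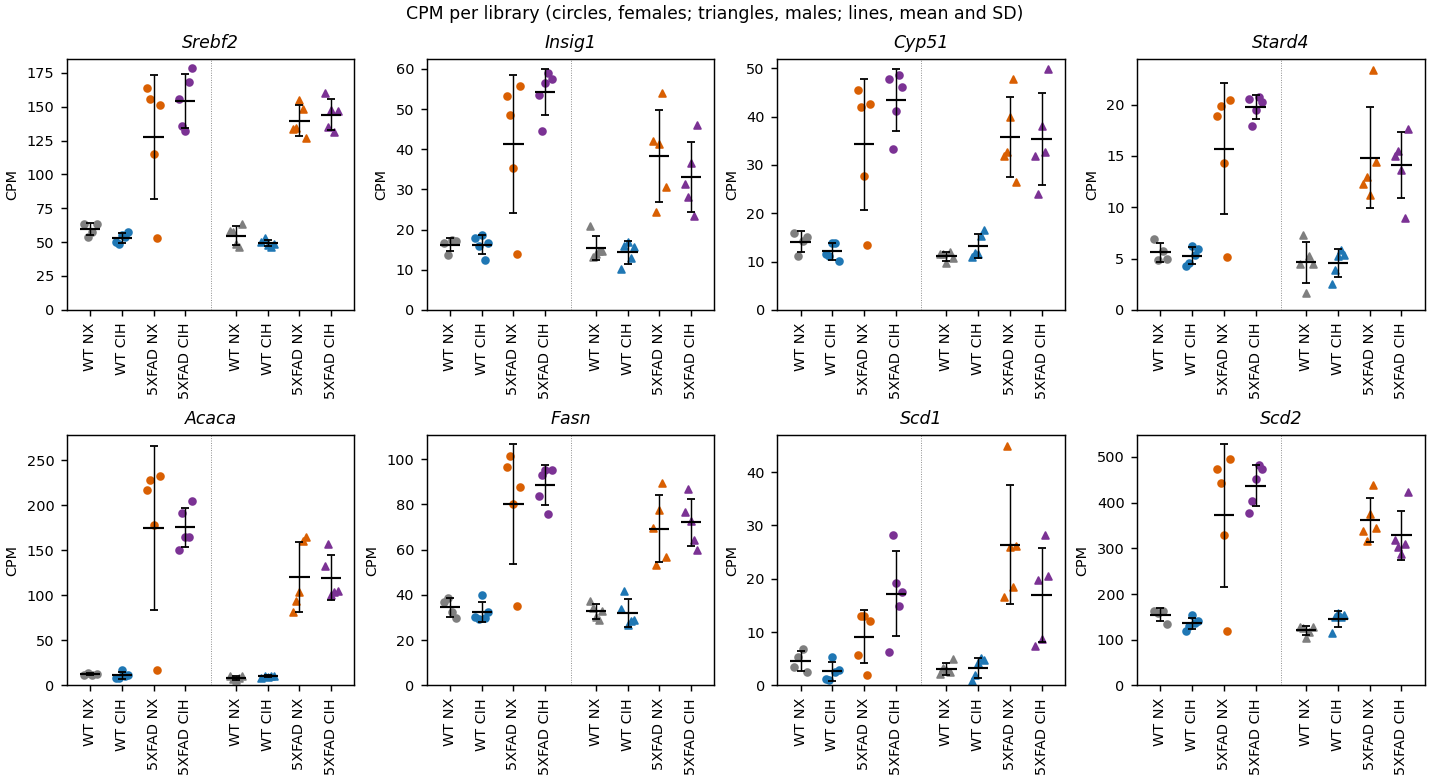
CPM of 8 members in every library, with females as circles and males as triangles, grouped by genotype and treatment, and lines for the mean and SD. In each panel the WT groups lie close together and the 5XFAD groups are higher, for example Srebf2 at 46.3 to 63.3 CPM in WT and 53.0 to 179 CPM in 5XFAD, where the low circle in 5XFAD NX is replicate 4.

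Of the 8 members of the mevalonate pathway, 1 rose in NX females, 5 in CIH females, 2 of the 7 tested in NX males and 4 in CIH males. In the same order 7.26%, 26.2%, 10.4% and 25.3% of all genes tested rose. The count in NX females was thus near the share of all genes. Hmgcs1, the HMG-CoA synthase, had a mean of 35.1 ± 1.67 CPM in WT NX females and 63.1 ± 6.92 CPM in 5XFAD CIH females (SD, n = 4 and 5), and of 23.4 ± 2.73 and 45.5 ± 3.43 CPM in WT NX and 5XFAD NX males (n = 5 each). In WT CIH females Hmgcs1 was at 28.6 to 34.9 CPM, and in 5XFAD NX females at 29.7 to 61.0 CPM, lowest in replicate 4. It rose in CIH females (log2FC 1.00), NX males (0.96) and CIH males (0.75), and its 0.55 in NX females was not called with replicate 4 included and was called without it (0.69). Idi1, which converts the isoprenyl unit that chain building starts from, rose in both female comparisons (1.12 and 1.64, and 1.29 in NX without replicate 4). In males it was at 0.269 to 2.82 CPM in WT NX and 2.71 to 8.47 CPM in 5XFAD NX, and its log2FC of 1.49 was not called. Mvk, Pmvk and Mvd, the kinases and decarboxylase between them, had log2FC from -0.04 to 1.27, and Pmvk rose in 3 of the 4 comparisons, and in NX females without replicate 4 (0.41). Acat2, the thiolase at the entry, had log2FC from -0.18 to 0.14 and was not called.

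Ggps1 leaves the sterol branch to make the geranylgeranyl group used to anchor proteins, and it was the member of this pathway that fell. In CIH females it was at 60.7, 58.7, 59.8, 58.0 and 54.5 CPM in WT and 45.3, 51.1, 50.4, 45.8 and 50.6 in 5XFAD, with no overlap (log2FC -0.25 ± 0.0551, SE, adjusted p = 0.00213). In CIH males it was at 40.7, 52.2, 52.2, 54.3 and 52.5 CPM in WT and 35.8, 42.7, 40.0, 39.2 and 39.7 in 5XFAD (log2FC -0.34 ± 0.0999, adjusted p = 0.0114). There WT replicate 1 lay among the 5XFAD libraries. In NX females without replicate 4 it was also called (-0.24). It overlaps Arid4b on the opposite strand. Fdps, which makes farnesyl diphosphate for both branches, rose in CIH females, from 9.24 to 11.9 CPM in WT to 23.4 to 30.2 CPM in 5XFAD (log2FC 1.44), and in NX females the log2FC was 1.07 without replicate 4. In males it was at 0 to 1.73 CPM in all 20 libraries, was not tested in NX and was not called in CIH. Fdps has pseudogene copies in the genome and the tables use different annotations. Whether either bears on its counts was not tested, and the counts are uncertain.

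Of the 11 members that make squalene and turn it into cholesterol, 5 rose in NX females, 8 in CIH females, 6 in NX males and 8 in CIH males, and Tm7sf2 fell in CIH females. In the same order 7.26%, 26.2%, 10.4% and 25.3% of all genes tested rose, and 25.7% fell in CIH females. Cyp51, the lanosterol demethylase, was the most changed of the 11 in NX females, CIH females and NX males. It was at 15.9, 11.1, 14.3 and 15.1 CPM in WT NX females and 45.5, 41.9, 27.7, 13.4 and 42.7 in 5XFAD NX, at 11.5, 11.1, 13.8, 13.9 and 10.1 in WT CIH and 47.8, 33.2, 41.1, 48.7 and 46.1 in 5XFAD CIH. In NX males it was at 11.5, 11.5, 9.63, 12 and 10.8 CPM in WT and 31.8, 32.8, 40.0, 47.8 and 26.4 in 5XFAD. Apart from replicate 4 in females, the genotypes did not overlap. The log2FC was 1.28 ± 0.312 (SE, adjusted p = 0.0323) in NX females, 1.47 ± 0.164 without replicate 4, 1.86 ± 0.123 (adjusted p = 6.37e-08) in CIH females, 1.69 ± 0.168 (adjusted p = 1.88e-05) in NX males and 1.43 in CIH males. Cyp51 overlaps Akap9 on the opposite strand, at 50.3 CPM in WT NX males and 65.5 in 5XFAD NX males.

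Sqle, the squalene epoxidase and a rate-limiting step, rose by 0.83, 1.52, 1.21 and 1.53 on the log2 scale in NX females, CIH females, NX males and CIH males. Sc5d, whose promoter is printed above, rose by 0.93, 1.41, 1.10 and 1.2, and Dhcr7, the reductase that yields cholesterol, by 0.96, 1.37, 1.00 and 1.21. Without replicate 4 the log2FC in NX females was 0.98 for Sqle, 1.10 for Sc5d and 1.14 for Dhcr7. Msmo1, a methyl sterol oxidase, and Fdft1, the squalene synthase, rose in CIH females and in both male comparisons, and in NX females without replicate 4 (0.97 and 0.89). Fdft1 overlaps Ctsb on the opposite strand, and Ctsb had 3026 CPM in WT NX males and 9980 CPM in 5XFAD NX males. Whether reads of Ctsb were counted for Fdft1 was not tested. Lss, the lanosterol synthase, rose in CIH females (0.57) but had -0.26 in CIH males, which was not called. Tm7sf2, a sterol reductase, fell in CIH females, from 13.4, 13.6, 15.3, 12.8 and 12 CPM in WT to 11, 10.1, 10.3, 11.4 and 12 in 5XFAD (log2FC -0.28 ± 0.0921, SE, adjusted p = 0.0221). The highest 5XFAD value lay just under the lowest WT value. It overlaps Vps51 on the same strand.

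Stard4, which carries cholesterol between membranes and is a sterol-regulated gene, rose in all 4 comparisons. In females it was at 6.89, 4.82, 5.70 and 5.00 CPM in WT NX, 18.8, 19.8, 14.3, 5.12 and 20.4 in 5XFAD NX, 4.28, 4.59, 6.26, 5.31 and 5.89 in WT CIH, and 20.5, 17.9, 19.5, 20.8 and 20.3 in 5XFAD CIH. In males it was at 4.48, 7.29, 1.63, 5.24 and 4.48 CPM in WT NX, 12.3, 13, 11.2, 23.3 and 14.4 in 5XFAD NX, 2.51, 3.85, 5.27, 5.85 and 5.31 in WT CIH, and 15.0, 15.5, 13.6, 8.95 and 17.6 in 5XFAD CIH. No male library of either genotype overlapped the other, and in females only replicate 4 did. The log2FC was 1.48 ± 0.349 (SE, adjusted p = 0.0298) in NX females, 1.70 ± 0.159 without replicate 4, 1.92 ± 0.111 (adjusted p = 1.88e-08) in CIH females, 1.69 ± 0.341 (adjusted p = 0.00409) in NX males and 1.64 ± 0.236 (adjusted p = 5.77e-05) in CIH males.

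Fatty acid synthesis held the member with the greatest change, Acaca. In females it was at 11.7, 14.3, 11.7 and 12.9 CPM in WT NX, 217, 228, 178, 16.7 and 233 in 5XFAD NX, 8.10, 8.58, 17.1, 10.6 and 11.6 in WT CIH, and 151, 192, 165, 165 and 204 in 5XFAD CIH. In males it was at 10.5, 6.63, 6.32, 8.47 and 10.1 CPM in WT NX, 81.4, 94.1, 104, 160.0 and 165 in 5XFAD NX, 8.46, 10.4, 9.83, 10.9 and 10.9 in WT CIH, and 133, 157, 100.1, 104 and 105 in 5XFAD CIH. Every 5XFAD library was above every WT library of its comparison, and male 5XFAD NX replicates 4 and 5 were the highest of their group. The fold was 13.8 in NX females (log2FC 3.78 ± 0.630, SE, adjusted p = 0.0162), 15.8 in CIH females (3.99 ± 0.174, adjusted p = 1.47e-09), 14.4 in NX males (3.85 ± 0.248, adjusted p = 4.69e-07) and 12 in CIH males (3.58 ± 0.149, adjusted p = 3.38e-10). Without female replicate 4 the log2FC in NX females was 4.07 ± 0.112, and without male 5XFAD NX replicates 4 and 5 it was 3.47 ± 0.169 in NX males. The genes that overlap Acaca had at most 0.693 CPM in any male library.

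Fasn, the fatty acid synthase that uses the product of Acaca, rose in all 4 comparisons by much less, with log2FC of 1.21, 1.47, 1.08 and 1.18 in NX females, CIH females, NX males and CIH males, and 1.40 in NX females without replicate 4. Its mean was 34.6 ± 4.11 CPM in WT NX females and 88.5 ± 8.70 CPM in 5XFAD CIH females (SD, n = 4 and 5), and 32.8 ± 3.34 and 69.3 ± 14.9 CPM in WT NX and 5XFAD NX males. In WT CIH females Fasn was at 29.1 to 39.8 CPM, and in 5XFAD NX females at 35.3 to 101 CPM, lowest in replicate 4. Acly rose in CIH females (0.51) and had 0.43, 0.39 and 0.20 in the other comparisons, which were not called. Without replicate 4 it rose in NX females (0.55). In NX males it was at 177 to 183 CPM in 5XFAD replicates 1 to 3 and at 272 and 262 CPM in replicates 4 and 5.

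Of the 6 elongation and desaturation members, the stearoyl-CoA desaturases rose most and Fads1 fell. Scd1 was at 1.25, 1.01, 5.36, 2.52 and 2.95 CPM in WT CIH females and 6.25, 28.3, 19.2, 14.9 and 17.6 in 5XFAD CIH (log2FC 2.73 ± 0.428, SE, adjusted p = 0.000142). In NX males it was at 2.09, 3.35, 2.86, 2.49 and 4.94 CPM in WT and 16.5, 44.8, 25.9, 18.5 and 26.2 in 5XFAD (3.07 ± 0.314, adjusted p = 2.36e-05). In CIH males it was at 0.877, 1.88, 4.11, 5.17 and 4.68 CPM in WT and 7.35, 19.7, 8.71, 28.3 and 20.5 in 5XFAD (2.35 ± 0.442, adjusted p = 0.000546). The genotypes did not overlap in these 3 comparisons, though the spread within 5XFAD groups was wide. In NX females its values of 3.54, 5.40, 6.88 and 2.61 CPM in WT and 5.79, 13.1, 13, 2.00 and 12 in 5XFAD overlapped, and it was called without replicate 4 (log2FC 1.24 ± 0.336) but not with it (0.99 ± 0.506). Scd2, the more abundant desaturase, rose by 1.26, 1.70, 1.59 and 1.18 on the log2 scale in NX females, CIH females, NX males and CIH males, and by 1.48 in NX females without replicate 4.

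Fads1 was at 142, 140.0, 135 and 127 CPM in WT NX females and 120.0, 117, 101, 100.1 and 111 in 5XFAD NX (log2FC -0.31 ± 0.0771, SE, adjusted p = 0.0347), and replicate 4 was the lowest. Without it the log2FC was -0.29 ± 0.0721. In CIH females it was at 129.9, 125, 135, 145 and 143 CPM in WT and 107, 118, 119, 119 and 123 in 5XFAD (-0.20 ± 0.0578, adjusted p = 0.0113). The groups did not overlap in either, and the fold was 1.24 in NX and 1.15 in CIH. In males its log2FC of -0.05 and -0.19 was not called. Fads2, which acts before Fads1 in the same path, rose in CIH females (1.24) and NX males (1.41), at low levels of at most 9.53 CPM. Elovl5 rose by 0.45 to 0.60 in all but NX females, where it was called without replicate 4 (0.54), and Elovl6 was not called, with log2FC of -0.59 to 0.08.

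A further 24 genes of lipid synthesis and SREBP processing that are not members were also examined. Of them 2 rose and 1 fell in NX females, 14 and 2 in CIH females, 4 and none in NX males, and 11 and 4 in CIH males. Over all genes tested, 7.26% rose and 6.61% fell in NX females, 26.2% and 25.7% in CIH females, 10.4% and 7.37% in NX males, and 25.3% and 23.7% in CIH males. In NX females the share of the 24 was thus near that of all genes. Their median log2FC was 0.12, 0.26, 0.13 and 0.21, against 0.63, 1.08, 0.77 and 0.70 for the members. Without replicate 4, 8 rose and 3 fell in NX females, with a median of 0.17. Without male 5XFAD NX replicates 4 and 5, 9 rose and 1 fell in NX males, with a median of 0.24. Me1, the malic enzyme that yields NADPH, had the largest log2FC of the list in NX males and was chosen after its values were seen. It rose by 2.44 in NX males, 1.45 in CIH females and 1.44 in CIH males, and its 0.31 in NX females was not called (0.45 without replicate 4). Hacd2, a dehydratase of fatty acid elongation, rose in all 4 by 1.27 to 2.01, and Cyb5r3, which feeds electrons to desaturases, by 0.81 to 1.41. Lbr, a lamin receptor that also acts as a sterol reductase, fell by 0.59 in NX females (by 0.77 without replicate 4), by 0.63 in CIH females and by 1.25 in CIH males.

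Some markers of other cells moved with genotype, and their part in these results was not tested. Of all genes tested, 13.9% were called in NX females, 51.9% in CIH females, 17.8% in NX males and 49.0% in CIH males. In the CIH comparisons smaller shares of the endothelial, oligodendrocyte, neuron and neutrophil markers were called. The 9 astrocyte markers summed to 177 to 242 CPM in WT NX females, 162 to 214 in WT CIH, 147 to 367 in 5XFAD NX and 231 to 652 in 5XFAD CIH, with Gfap called higher in all 4 comparisons and Slc1a3 lower. In males the sums were 144 to 206, 167 to 258, 385 to 1026 and 224 to 620.3 CPM in the same order. Of the 9, 1 rose and 1 fell in NX females, 4 and 1 in CIH females, 3 and 1 in NX males, and 1 and 2 in CIH males. The 7 border macrophage markers fell in 5XFAD, 7 of 7 in both female comparisons, 6 in NX males and 4 in CIH males. Their sums were 149 to 335 CPM in WT females, 66.0 to 158 in 5XFAD females, 151 to 329 in WT males and 97.3 to 188 in 5XFAD males. Microglia markers also fell, 5 of 9 in NX females and 6 of 9 in each of the other 3 comparisons, and 1 rose in both CIH comparisons. Of 9 dissociation response genes, 2 rose in each female comparison, 1 rose and 4 fell in NX males and 4 rose in CIH males. Of 9 oligodendrocyte markers, 7 of which were tested in females, 1 fell in each female comparison, 2 rose in NX males and 1 rose in CIH males. Endothelial markers had 1 higher and 1 lower of 9 in all 4 comparisons. Neutrophil markers had 3 of the 7 tested lower in each CIH comparison, and neuron markers at most 1 called in each direction. Without female replicate 4, NX females had 2 astrocyte markers higher and 3 lower, 6 microglia markers lower and 1 higher, 3 dissociation genes higher and 1 neutrophil marker lower, and all 7 border macrophage markers were still lower. No marker of any list was at 0 in every library of a group.

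The comparisons between treatments asked whether CIH changes these genes within a genotype, with log2FC as CIH minus NX. In females no member was called in WT or 5XFAD, and 0% of all genes were called in either, of 14583 and 14578 tested. At an unadjusted p under 0.05 there were 565 and 470 genes, 3 and 2 of them members. DESeq2 called 1 and 0 genes and the likelihood ratio test 0 and 0, none of them a member. In WT females the members with the smallest p were Srebf2, with log2FC -0.16 (95% interval -0.32 to -0.0099), and Srebf1, with -0.13 (-0.25 to -0.0049), adjusted p = 0.96 for both, and 28 of 34 members were below 0, against 51.7% of all genes. In 5XFAD females they were Sqle, with 0.51 (0.08 to 0.93), and Lss, with 0.25 (0.0051 to 0.49), adjusted p = 0.998 for both, and 29 of 34 were above 0, against 50.3% of all genes. Without replicate 4 it was 26 of 34, against 50.5%. The median of the members there was 0.24, against 0.00 over all genes, and 0.11 without replicate 4, where Sqle had 0.35 and Lss 0.18. Markers of other cells also leaned to a side without being called, and their part in these tallies was not tested. In WT females 7 of 7 oligodendrocyte, 8 of 9 astrocyte and 6 of 7 border macrophage markers tested were below 0. In 5XFAD females 6 of 7 oligodendrocyte, 8 of 9 astrocyte, 5 of 5 neuron and 7 of 9 endothelial markers were above 0, while 7 of 7 neutrophil markers, 8 of 9 microglia markers and 7 of 9 dissociation response genes were below. The median of the neutrophil markers went from -0.80 to 0.49 without replicate 4.

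In WT males Scd2 rose and Ebp and Dhcr7 fell under CIH. These are 1 higher and 2 lower of 34 members, while 13.6% of 14983 genes rose, 15.0% fell and 28.6% were called. Ebp, a sterol isomerase, was at 57.8, 58.2, 54.9, 75.0 and 67.2 CPM in NX and 51.1, 44.8, 49.0, 44.6 and 48.7 in CIH, with no overlap (log2FC -0.39 ± 0.0963, SE, adjusted p = 0.00678). Dhcr7 was at 28.2, 38.8, 34.2, 27.9 and 34.2 CPM in NX and 25.9, 28.0, 23.8, 24.7 and 21.9 in CIH (-0.39 ± 0.114, adjusted p = 0.0174). Scd2 was at 128, 126, 105, 117 and 127 CPM in NX and 114, 149.6, 158, 151 and 155 in CIH (0.27 ± 0.0958, adjusted p = 0.0438). For Dhcr7 and Scd2 the groups overlapped by 1 CIH library each. The largest fold among the 3 was 1.31. Of the 24 further genes of lipid synthesis and SREBP processing, 4 rose and 7 fell, with log2FC among those called from -0.68 for Tecr, a reductase of fatty acid elongation, to 0.75 for Lbr. With all 4 male groups in a single fit none of the 3 was called, and neither was any other gene. Without WT CIH replicate 1, 5 of 34 members were called, and the share of all genes called in that fit is not given here. Scaling by library size alone called 1 higher and 1 lower member, and Dhcr7 was then not called. The call of Scd2 was lost in 8 of the 10 fits that left out 1 library and with the replicate block. Neutrophil markers moved in the same comparison, where 6 of 8 fell and the summed level was 235 to 1226 CPM in NX and 109 to 324 CPM in CIH. Of the 9 microglia markers 4 fell and of the 7 border macrophage markers 2 fell, while 2 of 9 oligodendrocyte markers and 1 of 8 astrocyte markers tested rose. Their part in the result was not tested.

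In 5XFAD males no member was called between CIH and NX, and 0% of 14334 genes were, with 473 genes and no member at an unadjusted p under 0.05, and 1 gene each by DESeq2 and the likelihood ratio test. The members with the smallest p were Lss, with log2FC -0.42 (95% interval -0.87 to 0.03), and Scd1, with -0.64 (-1.44 to 0.17), adjusted p = 0.995 for both. The NX and CIH libraries overlapped for each of the 33 members tested, and for all but 0.774% of the genes tested.

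**Figure D4:**
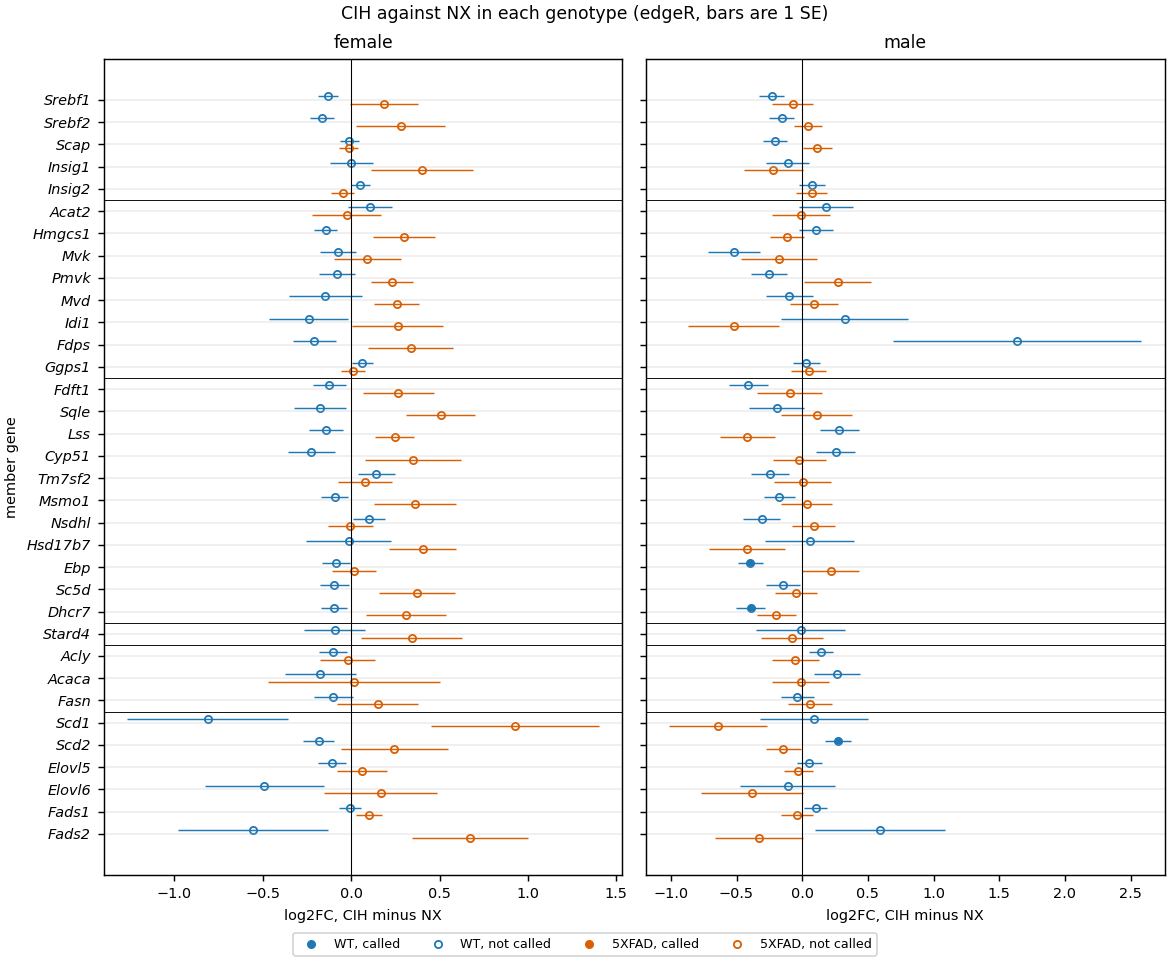
log2FC of CIH minus NX for each member in WT (blue) and 5XFAD (orange), in females (left) and males (right), with bars of 1 SE and filled points for genes with a false discovery rate under 0.05. Only Ebp, Dhcr7 and Scd2 in WT males are filled, and in females most orange points lie right of 0 and most blue points left of it without being called.

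Whether genotype and treatment interact was tested over the 4 groups of each sex. No member was called in either sex, and 0% of all genes were, of 15582 tested in females and 15813 in males. At an unadjusted p under 0.05 there were 589 genes and 5 members in females and 3857 genes and 4 members in males. DESeq2 called 0 genes in females and 945 in males and the likelihood ratio test 0 and 248, none of them a member. The members with the smallest p were Sqle (0.67, 95% interval 0.16 to 1.19) and Lss (0.38, 0.08 to 0.68) in females, adjusted p = 0.952 for both. In males they were Lss (-0.70, -1.23 to -0.17, adjusted p = 0.129) and Scd2 (-0.41, -0.76 to -0.06, adjusted p = 0.151). The value of Lss in males includes the high 5XFAD NX replicate 4 given above. The median over the members was 0.38 in females and -0.03 in males, against -0.01 and -0.04 over all genes. Other lists had larger medians without a called gene, and their part was not tested. In females the median was 1.14 for oligodendrocyte markers (8 of 8 above 0), 0.90 for astrocyte markers (8 of 9), 0.71 for neuron markers and 0.50 for endothelial markers, and -0.38 for dissociation response genes (9 of 9 below 0). In males it was -1.07 for oligodendrocyte, -1.44 for astrocyte and -0.34 for endothelial markers, and 0.74 for dissociation response genes. Without female 5XFAD NX replicate 4 the median over the members in females was 0.22, those of oligodendrocyte and astrocyte markers were 1.08 and 1.04, Sqle had 0.52 and Lss 0.32, and no member was called. Without male 5XFAD NX replicate 1, 953 genes but no member were called.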

How the data were processed

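RNA of CD11b+ cells from the cerebrum was sequenced as 39 libraries. The authors deposited 1 table of counts per gene for each sex, with an FPKM per gene and library. HISAT2 and the builds GRCm38 and mm10 are named in the submitters' processing notes, without versions, and the counting tool and its use of strand are not given in the sources used here. The authors' FPKM, scaled to gene length and library total, served only to compare levels between genes within a table, since the male values follow a total other than that of the column.

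Groups came from the sample titles. Within a sex each pair of groups was fitted on its own to the deposited counts with edgeR 4.0.16 (quasi-likelihood F test, TMM, R 4.3.3), keeping genes above 1 CPM in at least 3 samples. Adjusted p is Benjamini-Hochberg over all genes tested, with a limit of 0.05. Interactions used all 4 groups of a sex. SE was taken from the log2FC and its F, and 95% intervals use the t quantile at the test's degrees of freedom. CPM uses TMM-scaled library sizes. The steps were tested on simulated data. Alternatives were the study's added limit of an absolute log2FC above 1, library size alone, DESeq2 1.42.0, the likelihood ratio test, no filter, all 4 groups in 1 fit, a replicate block and leaving out each library.

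Members and gene lists were chosen with earlier results of these data known. Full values were given for at most 4 rises and 4 falls per comparison among called members, for the 2 members of smallest p where none was called, and for at most 3 genes of another list. P-values measure the spread between libraries, whose origin in separate animals the labels do not state. No libraries were duplicates (76 pairs, lowest chi-square per degree of freedom 4.86). The totals of 13457293 to 25906121 counts put low genes near the resolution of counting.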

Additional observations from a re-analysis of the deposited data

Results flagged for a closer look

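Single libraries stood apart from the rest of their group in 14 of 272 groups of 1 member's CPM, where chance flags about 1 in 20. In females these were Pmvk in WT NX replicate 4 (16.5 CPM, others 14.3 to 14.5), Mvd in WT CIH replicate 2 (3.28, others 5.66 to 6.51), and, in the 5XFAD NX library that went against its label, Acly (181, others 315 to 330.5) and Acaca (16.7, others 178 to 233). In male WT NX they were Insig1 in replicate 1 (20.8, others 13.1 to 14.7) and Nsdhl in replicate 3 (21.0, others 14.8 to 15.8). In male WT CIH replicate 1 was low for Acat2 (8.71, others 12.8 to 13.6), Ggps1 (40.7, others 52.2 to 54.3) and Scd2 (114, others 149.6 to 158), and replicate 5 was high for Sqle (7.74, others 4.84 to 5.38). Male 5XFAD NX replicate 4 was high for Stard4 (23.3, others 11.2 to 14.4). Male 5XFAD CIH replicate 5 was low for Scap (85.4, others 91.1 to 92.9) and high for Mvk (21.8, others 9.74 to 11.6) and Scd2 (423, others 288 to 318). The cause was not tested.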

How the results depend on the processing

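The count of members called in NX females (13) was 8 with the added limit on log2FC, 20 with DESeq2, 22 with all 4 groups in 1 fit and 23 by the likelihood ratio test without 5XFAD NX replicate 4. Leaving out 1 library gave 0 to 25, lowest without WT NX replicate 3 or 4 and highest without 5XFAD NX replicate 4. With the replicate block it was 0, with 7 genes called in all. The count of members higher in all 4 genotype comparisons (10) was 17 with DESeq2, 17 by the likelihood ratio test without 5XFAD NX replicate 4, 16 with all 4 groups in 1 fit, 0 with the replicate block and 0 to 17 leaving out 1 library, these alternatives for this count being chosen after seeing the data. In CIH males the added limit gave 14 in place of 22. Between WT CIH and WT NX males (3) the added limit and all 4 groups in 1 fit each gave 0, and leaving out 1 library gave 2 to 5, highest without WT CIH replicate 1. Leaving out 1 library gave 26 to 29 in CIH females, 15 to 18 in NX males, 20 to 23 in CIH males and 0 elsewhere. Same-numbered libraries of the groups compared did not all correlate above 0.1 in any comparison, so the numbers were not taken to pair samples, and the replicate block gave 27, 15, 20 and 3 in CIH females, NX males, CIH males and WT males, where 0 of the 3 were higher, against 1 of 3 without it. No called value changed direction. Of 84 called values, DESeq2 and the likelihood ratio test kept all 84 past the limit, library size alone 73, no filter 77, all 4 groups in 1 fit 76, the replicate block 63 and the added limit 53, and leaving out 1 library kept 691 values and lost 136. The cause was not tested. With 12.9 to 27.2 reads per CPM, members near 1 CPM were the least resolved.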
